A study of Homo sapiens with 6 samples.

Results

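The AP-1 transcription factor genes FOS, FOSB, FOSL1, FOSL2, JUN, JUNB and JUND were examined together with ATF3 and MAFF, 9 genes of the 58174 in the deposited expression table. The genes were found by their names in that table. The set was chosen by a difference already seen between the groups compared here, in FPKM (fragments per gene, scaled to gene length and to library size), so the members' own differences are given as a description with no test.

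The cells were labelled Huh-7, an established human hepatocellular carcinoma line, and the series title places the work in the study of cisplatin sensitivity. One group of 3 samples had received mimics of miR-27a-3p, which are synthetic RNAs that imitate the mature microRNA, and the other group of 3 had received a negative control, called NC in the labels, whose sequence the labels do not give. Both groups were transfected with Lipofectamine 3000, kept for 48 h and detached with trypsin before RNA extraction, and no cisplatin treatment is named. Whether each sample was a culture of its own is not stated, so the p-values below reflect only how far these samples scatter, and that scatter may be technical.

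The values went against the labelled cell type in one respect. Of 16 liver and hepatoma markers, 15 lay below 1 FPKM in all 6 samples, and 6 of them, APOA2, APOB, APOH, TTR, FOXA2 and GPC3, were listed at 0 throughout. Albumin (ALB) reached 0.0110 FPKM in control sample 2 and was listed at 0 in the other 5, and alpha-fetoprotein (AFP) was at most 0.0237. The highest marker was SERPINA1, at 1.49, 0.708 and 0.733 FPKM in controls and 0.0923, 0.276 and 0.0787 in mimic samples, followed by HNF4A, at 0.129 to 0.246 in controls and 0.757 to 0.980 in mimic samples. The markers summed to 1.24 to 2.15 FPKM in controls and 0.950 to 1.31 in mimic samples, so the results below describe cells labelled Huh-7 in which defining liver transcripts were near 0. Endothelial markers summed to 1.42 to 2.94 FPKM in controls and 0.535 to 0.854 in mimic samples, mostly from CDH5 (0.886 to 2.08 in controls and 0.190 to 0.455 in mimic samples) and PECAM1 (0.534 to 0.808 and 0.287 to 0.368), while KDR was listed at 0. Fibroblast markers summed to 17.7 to 18.3 and 7.73 to 10.5 FPKM, mostly COL1A1, while COL1A2 and DCN were at most 0.0461. PDGFRB was at 0.370 to 0.627 FPKM in controls and higher, at 0.827 to 1.16, in mimic samples. LUM and COL3A1 were at most 0.136. Leukocyte markers summed to 8.77 to 10.6 and 11.3 to 19.4 FPKM, mostly CD68, with PTPRC at 0.0184 or less. The part of these markers in the results was not tested.

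Read numbers are not given in the files. Multiplied by gene length, FPKM piled up at 1 lowest value and again at its double, and read as single fragments this implies 17100000 to 21300000 fragments per control sample and 25300000 to 31300000 per mimic sample. Mitochondrial genes held 16.9% to 32.8% of the summed FPKM of a control sample and 14.6% to 38.9% of that of a mimic sample, with sample 3 the highest in both groups. Long non-coding RNAs, taken as a sign of RNA handling, were lower in mimic samples, with MALAT1, NEAT1 and GAS5 all called. Their list summed to 211.3 to 325.8 FPKM in mimic samples against 695.8 to 815.3 in controls. A large part of that sum was GAS5, with means of 162.7 and 314.5 FPKM, which unlike MALAT1 and NEAT1 is not confined to the nucleus. The part of these differences in the results was not tested.

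AP-1 is not a single protein but a family of dimers. JUN proteins pair with each other or with FOS proteins through a leucine zipper, whereas FOS proteins need a partner, and the pair binds DNA through basic regions beside the zipper. FOS, FOSB, JUN, JUNB and ATF3 are immediate early or stress-induced genes, switched on within minutes by growth factors, serum, stress or manipulation of cells, with mRNAs that decay quickly; FOSL1, FOSL2 and JUND are produced in a slower or steadier way. In liver AP-1 is known for its part in regeneration, stress responses and tumour growth.

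The microRNA imitated by the mimic is printed first, because its seed, the part that pairs with target mRNAs, was looked for in the members. It lies on chromosome 19 from 13836447 to 13836467 (GRCh38, minus strand), and the capitals mark bases 2 to 8.
miR-27a-3p: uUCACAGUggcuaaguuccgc

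In the longest 3' UTR that GENCODE 29 annotates for each member, a match to the seed was present in FOSB, FOSL2 and ATF3 and in none of the other 6 members. Matches were sought as ACTGTGAA (8mer), ACTGTGA (7mer-m8) and CTGTGAA (7mer-A1), each counted only where it lay in no longer class. An 8mer is the best match of 7.08% of the 11527 tested genes with an annotated 3' UTR, a 7mer-m8 of 11.9% and a 7mer-A1 of 12.6%, while 68.4% hold none. FOSB had 1 8mer, at chr19:45473884-45473913, FOSL2 had 7mer-A1 matches at chr2:28413776-28413805 and chr2:28414860-28414889, and ATF3 had a 7mer-A1 at chr1:212620632-212620661, all on the plus strand. The matches are shown, in capitals, within 30 bases of 3' UTR.
FOSB: gagtgatttatACTGTGAAatgagttggcc
FOSL2, first: cagcaagcaagCTGTGAAcagctggcctga
FOSL2, second: agctacgtgccCTGTGAAgacccccaggct
ATF3: ttctgatgtttCTGTGAAattctcagagtg

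A match in these letters is a description, not evidence of binding, and its part in the members' levels was not tested.

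The FOS genes gave the widest range of any branch of the family. FOS, the founding member, on chromosome 14 (75278774 to 75282230, hg38, plus strand), had values of 508.0, 529.7 and 432.1 FPKM in controls, given here and below in the order of the sample numbers 1, 2 and 3, against 11.3, 10.7 and 6.57 with the mimic. Every control sample lay above every mimic sample, and the lowest control was 38.2 times the highest mimic sample. The group means were 490.0 ± 51.2 and 9.53 ± 2.58 FPKM (SD, n = 3), so that 1.95% of the control level was left.

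FOSB, whose protein has a long and a truncated form that gene-level values cannot tell apart, was at 74.6, 90.9 and 97.0 FPKM in controls and at 0.370, 0.519 and 0.467 in mimic samples. It was thus close to the bottom of the expressed range in all 3 mimic samples and well expressed in all controls. The means were 87.5 ± 11.6 and 0.452 ± 0.0755 FPKM, a ratio of 193.6. On the log2(FPKM + 0.5) scale its difference of -6.52 was the lowest of the 14439 genes tested, those averaging 1 FPKM or more, a filter it passed only through the control samples, and FOS at -5.64 ranked 3. The difference of FOSB depended on the pseudocount, at -7.31 with 0.1 and -5.92 with 1, since its mimic values lie near 0.5. FOSB (19:45467995 to 45475179) lies inside the interval of the DNA repair gene ERCC1 on the opposite strand. ERCC1 was at 34.8 to 44.7 FPKM in controls and 24.7 to 31.3 in mimic samples (log2 fold change -0.51, limma adjusted p = 0.0241), and whether counting used strand is not stated.

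FOSL1, which encodes FRA-1, a FOS protein without the strong activation domain of FOS, was at 27.8, 30.6 and 41.1 FPKM in controls and at 8.91, 11.7 and 22.4 in mimic samples. The groups did not overlap, but mimic sample 3 came within 1.24 times of the lowest control. Sample 3 was the highest in both groups. The means were 33.2 ± 7.03 and 14.3 ± 7.13 FPKM (log2 difference -1.27), with a coefficient of variation of 49.8% in the mimic group, second only to MAFF among the members.

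FOSL2, which encodes the related FRA-2, was at 35.7, 36.5 and 28.4 FPKM in controls and at 35.2, 39.8 and 33.2 in mimic samples, and the groups overlapped. The means were 33.5 ± 4.50 and 36.04 ± 3.39 FPKM. Its log2 difference of 0.11 became 0.43 after median-of-ratios scaling and -0.01 without control sample 3. Inside the gene lies the sense-intronic RNA ENSG00000270640, at 4.17, 1.97 and 2.36 FPKM in controls and 0.387, 0.424 and 0.136 in mimic samples. Its log2 fold change was -1.99 (limma adjusted p = 0.000540). Like FOSB, this RNA passed the filter on mean FPKM only through the control samples. Its mimic values lie below the pseudocount, so the size depends on that setting and no contrast with FOSL2 itself is drawn. FOSL2-AS1, on the other strand, was at most 0.603 FPKM in any sample.

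The JUN genes, each of a single exon, differed less between groups than FOS and FOSB. JUN, on chromosome 1 (58780788 to 58784327, minus strand), was at 34.0, 38.7 and 45.7 FPKM in controls and at 5.27, 5.16 and 4.80 in mimic samples. The mimic samples had a coefficient of variation of 4.83%, and all lay below the controls. The means were 39.5 ± 5.87 and 5.07 ± 0.245 FPKM (log2 difference -2.83), which left 12.9% of the control level. LINC01135, whose start lies 833 bases from that of JUN on the other strand, was at 0.425 to 0.606 FPKM in controls and 0.0346 to 0.234 in mimic samples, too low to be tested.

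JUNB, which in several settings opposes JUN, was at 182.5, 202.3 and 186.4 FPKM in controls and at 82.8, 90.3 and 85.3 in mimic samples. Both groups were tight and apart, with means of 190.4 ± 10.5 and 86.1 ± 3.79 FPKM and a log2 difference of -1.14. JUNB (19:12791496 to 12793315) lies within the interval of HOOK2 on the opposite strand, which was at 8.74 to 9.38 FPKM in controls and 6.21 to 6.40 in mimic samples (-0.48, adjusted p = 0.00996). MIR5684, whose start lies 4368 bases from that of JUNB on the same strand, was listed at 0 in every sample.

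JUND, the most steadily expressed JUN gene in many cell types, was at 146.0, 141.2 and 154.3 FPKM in controls and at 104.6, 91.0 and 82.2 in mimic samples. The groups did not overlap, and 62.9% of the control level was left (147.1 ± 6.62 and 92.6 ± 11.3 FPKM). The size of this difference depended on the scale, with a log2 difference of -0.67 on the deposited values, -0.35 after median-of-ratios scaling and -0.75 after quantile normalization. The processed pseudogene RPL39P38 starts 3873 bases from JUND on the same strand. It was at 1.97 to 3.95 FPKM in controls and 0.186 to 0.766 in mimic samples (-1.78, limma adjusted p = 0.00143). Like FOSB, it passed the filter on mean FPKM only through the control samples, and its mimic values lie near or below the pseudocount. MIR3188, which starts 455 bases away on the other strand, was at most 0.335 FPKM.

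ATF3, a stress-induced partner of JUN proteins that can also repress promoters as a dimer with itself, behaved like FOS. It was at 281.8, 283.0 and 308.0 FPKM in controls and at 9.15, 9.23 and 12.6 in mimic samples. The means were 290.9 ± 14.8 and 10.3 ± 1.996 FPKM, so 3.56% was left, and the log2 difference of -4.76 ranked 7 from the lowest of the genes tested. Its gene spans chromosome 1 from 212565334 to 212620777, and no other gene of the table overlaps it or starts within 5 kb of its start.

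MAFF, a small MAF protein that has no activation domain of its own and pairs with FOS or NFE2-related factors, varied more within each group than any other member, with coefficients of variation of 106% in controls and 61.9% in mimic samples. It was at 5.22, 4.51 and 28.1 FPKM in controls and at 14.2, 13.0 and 2.90 in mimic samples. Control sample 3 was the highest of all 6 and mimic sample 3 the lowest, and the other 2 mimic samples lay above the other 2 controls. The means, 12.6 ± 13.4 and 10.0 ± 6.21 FPKM, say little with such a spread. The log2 difference was -0.09 over all samples and 1.40 without sample 3 of both groups. PLA2G6, which overlaps MAFF on the opposite strand, was at 14.01 to 16.5 FPKM in controls and 8.37 to 10.1 in mimic samples (-0.67, adjusted p = 0.00412).

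**Figure D1:**
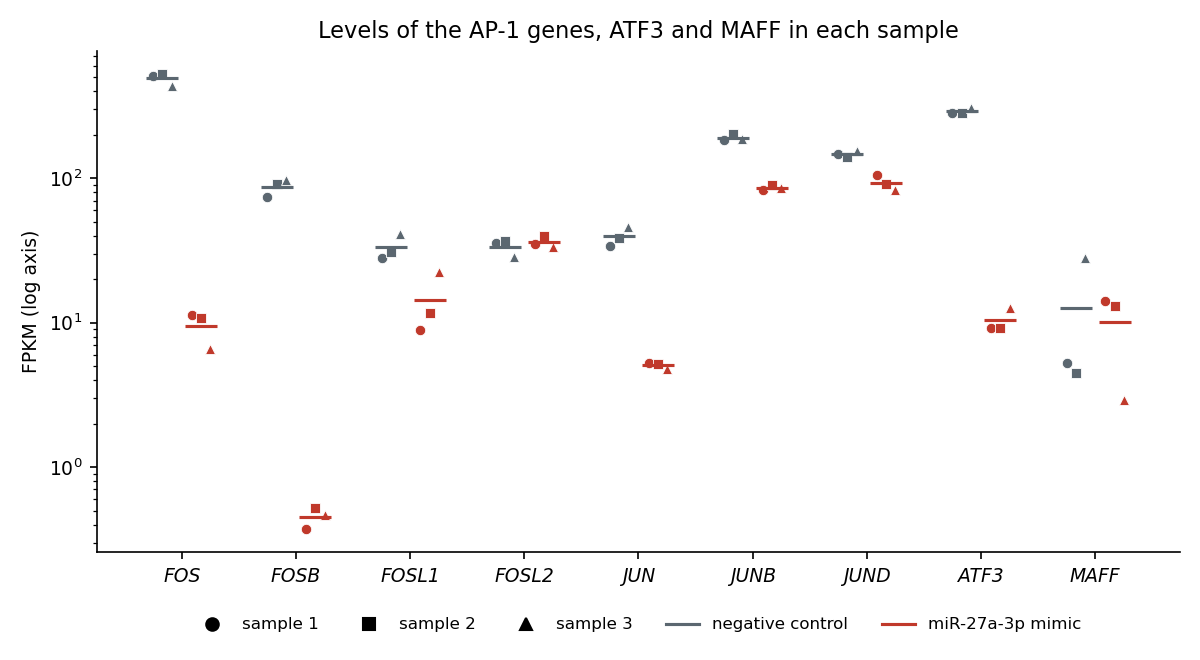
FPKM on a log axis of each of the 9 genes in the 3 negative control samples (grey) and the 3 mimic samples (red); symbols give the sample number and bars the group mean. FOS, FOSB, JUN and ATF3 lie far apart between groups, FOSL2 overlaps, and MAFF has its highest value in control sample 3 (28.1) and its lowest in mimic sample 3 (2.90).

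The groups did not overlap in 7 of the 9 members, and 60.5% of all genes tested did not overlap either. Because the members were chosen on this contrast, nothing is read from that count. Over all 14439 genes tested, 51.6% passed the limma threshold (adjusted p under 0.05), 39.6% as lower and 12% as higher, and the gene lists below are set beside these shares. The median log2 difference was -1.27 over the 9 members and -0.29 over all genes tested. That general shift of -0.29 went to 0.01 after median-of-ratios scaling, where the members' median was -0.95. Of all calls, 23.3% were higher on the deposited values, 49.6% after that scaling and 52.2% after quantile normalization. In bulk RNA, fewer cells with a transcript and less of it per cell cannot be told apart.

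The order of the genes by level was rearranged between the groups. In control samples it ran, by mean FPKM, FOS, ATF3, JUNB, JUND, FOSB, JUN, FOSL2, FOSL1 and MAFF. From FOS down to JUN neighbouring genes had ranges that did not meet, while the ranges of JUN and FOSL2 overlapped, as did those of FOSL2 and FOSL1. The ranges of FOSL1 and MAFF met only through MAFF in control sample 3, and FOSL1 was above MAFF in each of the 3 control samples. In mimic samples the order was JUND, JUNB, FOSL2, FOSL1, ATF3, MAFF, FOS, JUN and FOSB. There JUND and JUNB overlapped, as did each neighbouring pair from FOSL1 to FOS, whereas JUNB stood above FOSL2, FOSL2 above FOSL1, FOS above JUN and JUN above FOSB in every sample. Among the 14439 genes FOS held rank 76 from the highest in controls and 6255 in mimic samples, and ATF3 went from 169 to 5896, while JUND went from 337 to 649.

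The summed level of the FOS and JUN genes was 1009, 1070 and 984.9 FPKM in controls and 248.4, 249.1 and 234.9 in mimic samples. The composition of that sum differed as well. FOS made up 47.9% ± 3.53 of it in controls and 3.88% ± 0.949 in mimic samples, and FOSB 8.58% ± 1.23 and 0.185% ± 0.0318. The shares of JUNB went from 18.6% ± 0.473 to 35.3% ± 1.70, of JUND from 14.4% ± 1.23 to 37.9% ± 3.74, and of FOSL2 from 3.28% ± 0.351 to 14.7% ± 1.06, although none of these genes had all its mimic values above all its control values. The 4 FOS genes together outweighed the 3 JUN genes in controls, with a ratio of 1.78, 1.80 and 1.55 in samples 1, 2 and 3, and were outweighed by them in mimic samples, at 0.289, 0.336 and 0.363. These are proportions of mRNA, not of protein or of dimers.

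**Figure D2:**
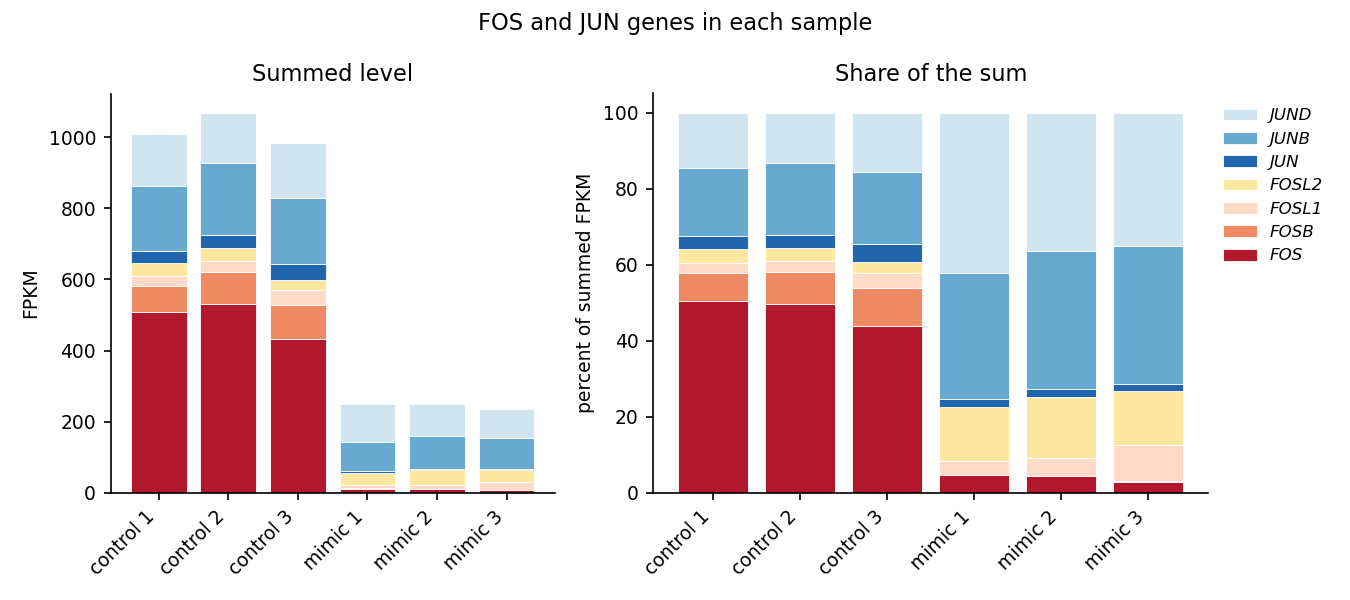
Stacked bars of the 7 FOS and JUN genes in each sample, as FPKM (left) and as percent of their sum (right). FOS fills 43.9% to 50.4% of each control bar and 2.80% to 4.56% of each mimic bar, in which JUNB and JUND are the largest parts.

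Promoter sequence is shown for members whose values are described above. RefSeq starts (GRCh38.p14) were available for 8 members, all but FOSL1. The 250 bases before each start were searched on both strands for the cAMP response element TGACGTCA, to which CREB and ATF proteins bind, for its core TGACG, for TGACATCA, the variant known from the JUN promoter, and for the AP-1 sites TGACTCA and TGAGTCA. The core lies within every full element. All 8 starts but that of ATF3 had at least 1 core, against 21.2% of 35116 promoters of the same length. FOS had it 64 bases before the start, FOSB 60, FOSL2 66 and 201, JUN 123, JUNB 137 and JUND 86. The full element stood at 54 bases in MAFF and 200 in JUND (1.65% of all promoters). TGACATCA stood at 67 bases in JUN and 123 in ATF3 (2.37% of all). Neither AP-1 site was found in any of the 8, and 4.20% of all promoters hold one. The 150 bases before the start are printed for FOS, FOSB, JUN and ATF3, which were lowest relative to control, and for FOSL2 and MAFF, whose groups overlapped, with the matches in capitals.
FOS, chr14:75278678-75278827, plus strand: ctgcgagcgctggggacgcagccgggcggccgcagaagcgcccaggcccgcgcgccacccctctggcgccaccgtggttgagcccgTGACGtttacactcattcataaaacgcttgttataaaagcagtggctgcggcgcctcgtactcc
FOSB, chr19:45467846-45467995, plus strand: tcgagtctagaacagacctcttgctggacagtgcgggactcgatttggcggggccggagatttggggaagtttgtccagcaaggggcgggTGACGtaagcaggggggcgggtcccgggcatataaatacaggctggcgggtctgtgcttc
JUN, chr1:58784048-58784197, minus strand: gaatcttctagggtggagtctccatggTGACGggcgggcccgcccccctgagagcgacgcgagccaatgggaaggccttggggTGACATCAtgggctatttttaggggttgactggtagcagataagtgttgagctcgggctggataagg
ATF3, chr1:212565257-212565406, plus strand: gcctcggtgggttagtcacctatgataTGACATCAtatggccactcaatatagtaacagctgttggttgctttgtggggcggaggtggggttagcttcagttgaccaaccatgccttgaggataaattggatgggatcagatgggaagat
FOSL2, chr2:28392708-28392857, plus strand: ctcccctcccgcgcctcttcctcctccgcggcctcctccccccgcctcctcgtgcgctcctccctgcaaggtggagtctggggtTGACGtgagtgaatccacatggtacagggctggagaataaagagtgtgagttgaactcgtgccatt
MAFF, chr22:38201844-38201993, plus strand: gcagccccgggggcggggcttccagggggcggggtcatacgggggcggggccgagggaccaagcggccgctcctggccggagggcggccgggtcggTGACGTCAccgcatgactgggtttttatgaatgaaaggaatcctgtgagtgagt

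A match is a description, not a bound site, and its part in the members' levels was not tested. ATF3 and MAFF each have a second RefSeq start, where none of the words was found. AU-rich words, which shorten the life of many early-response mRNAs, were also counted in the 3' UTRs. The nonamer TTATTTATT occurred in FOS (1), FOSL2 (1) and MAFF (2), and in 9.08% of the tested genes with a 3' UTR. The pentamer ATTTA occurred at 6.20 per kb in FOS and 4 in JUNB, at 2.45 in both ATF3 and MAFF, at 2.33 in JUN, and at 1.19 to 1.85 in the other 4, against a median of 1.48 over all tested 3' UTRs.

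**Figure D3:**
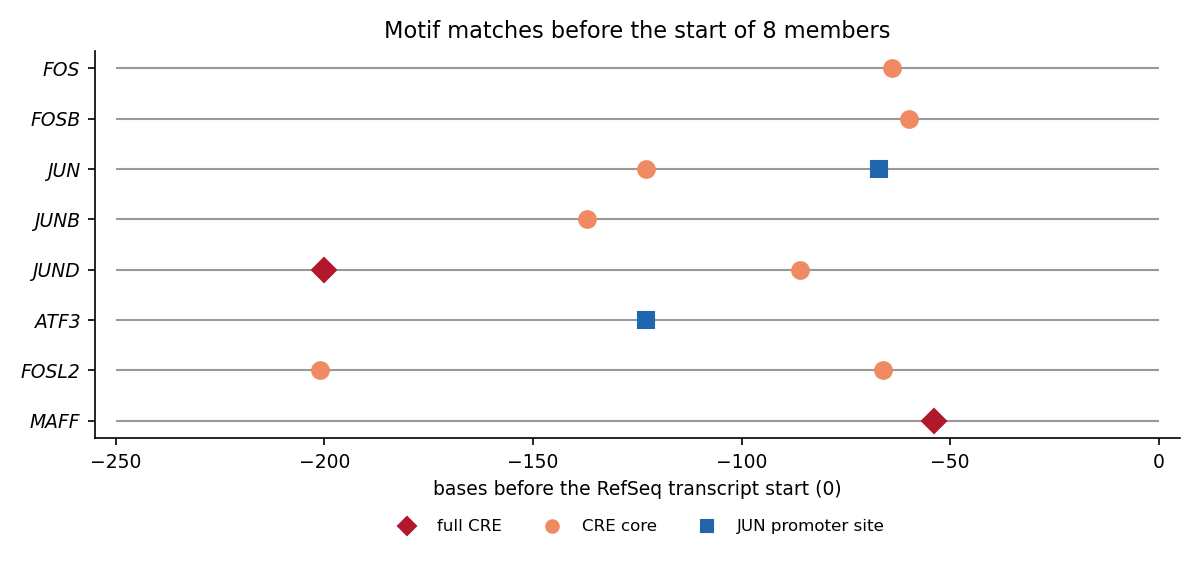
Positions of the word matches in the 250 bases before the first RefSeq start of 8 members, with distance from the start on the x axis. The core TGACG of FOS and FOSB lies 64 and 60 bases before the start, and FOSL2 has it at 66 and 201. The full CRE of MAFF lies 54 bases before the start.

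The genes with the most similar profile over the 6 samples were sought by the root mean square difference of centred log2 values. For FOSB this was EGR1, a zinc finger factor of the immediate early class (0.13), followed by FOS (0.54). EGR1 was at 48.3, 64.9 and 68.2 FPKM in controls and 0.161, 0.284 and 0.333 in mimic samples. For FOS the nearest were NFKBIZ (0.42), CCN2 (0.45) and the antisense RNA NR4A1AS (0.49), and for ATF3 they were CCN2 (0.19), NR4A1 (0.25) and DHRS2 (0.33). JUN was nearest to 3 unnamed pseudogene and microRNA entries of low level (0.08 to 0.12). JUNB, JUND and FOSL2 had nearer neighbours, with TOPBP1, IDI1 and LSR at 0.04 for JUNB, TIGD2 (0.03), FSD1 (0.03) and METTL4 (0.04) for JUND, and GLG1 (0.02), CMPK1 (0.03) and MARCHF8 (0.03) for FOSL2. DNAAF3 (0.11), EVI2B (0.14) and EPB41L4A-AS1 (0.16) were nearest to FOSL1. MAFF was far from its nearest genes RNF138 (0.54), CNBP (0.56) and FUNDC1 (0.66). All 3 were, like MAFF, highest in control sample 3 and lowest in mimic sample 3, with RNF138 at 9.33 and 1.97 FPKM, CNBP at 126.4 and 45.9, and FUNDC1 at 20.5 and 9.13. The measure describes these 6 samples in 2 groups and carries no test.

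Other immediate early genes were lower in mimic samples in 24 of 28 tested and higher in none, beside 39.6% and 12% of all genes. Their median log2 fold change was -2.07, and that of all genes -0.29. The whole list, like those below, was chosen with earlier results of these data known. After median-of-ratios scaling 23 of these genes were lower and none higher, beside 3953 lower and 3889 higher of all 14439 genes. EGR1 (log2 fold change -6.32, SE 0.17, adjusted p = 1.31e-06) and the growth factor gene CCN2 (-5.02, SE 0.14, adjusted p = 1.31e-06) fell. Like FOSB, both averaged 1 FPKM or more only through the controls. Their mimic values, at most 0.333 for EGR1 and 0.543 for CCN2, lie near or below the 0.5 pseudocount, so the sizes depend on it. CCN1, a relative of CCN2, went from 856.8 ± 42.4 to 67.4 ± 2.37 FPKM. The IkappaB family gene NFKBIZ (-5.00) and the orphan receptor gene NR4A1 (-4.37) were likewise lower. MYC, chosen after its values were seen, did not pass, at 12.6, 17.4 and 28.4 FPKM in controls against 11.4, 16.1 and 15.8 with the mimic (adjusted p = 0.325).

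Other genes of the basic leucine zipper class, which include partners of the members, did not share that depth. Of 22, 15 were tested, 8 were lower and 2 higher, beside 39.6% and 12% of all genes, with a median of -0.60. The counts were 6 and 5 once scaled by median of ratios, beside 3953 and 3889 of all 14439 genes. MAFK, the small MAF paralog of MAFF, was at 66.3, 50.2 and 43.7 FPKM in controls and 18.8, 17.6 and 13.3 in mimic samples (-1.65, SE 0.20, adjusted p = 0.000301). BACH1, a repressor that pairs with small MAF proteins, fell by 1.65 on the log2 scale (SE 0.15), and so did NFE2L3 (SE 0.15). ATF2, a partner of JUN, was at 14.03 to 18.3 FPKM in controls and 7.79 to 10.5 in mimic samples (-0.81, adjusted p = 0.00366). JDP2, which binds JUN proteins and represses AP-1 sites, rose from 4.33, 7.82 and 4.07 to 14.6, 14.2 and 12.7 FPKM (1.33, SE 0.23, adjusted p = 0.00171). BATF and MAF, 2 further AP-1 partners, were at or near 0 in every sample.

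Genes that act on the AP-1 promoters or proteins had no common direction. Of 33 tested kinases and promoter factors, 11 were lower and 8 higher (median -0.04), beside 39.6% and 12% of all genes. Median-of-ratios scaling gave 8 lower and 15 higher (median 0.25), beside 3953 lower and 3889 higher of all 14439 genes. MAPK8, which encodes the JUN kinase JNK1, went from 9.09, 7.70 and 9.69 to 3.58, 3.86 and 3.10 FPKM (-1.22, SE 0.15, adjusted p = 0.000331). MAPK13 (-1.25), a p38 kinase, MAP3K7 (-1.03), the kinase TAK1, and ELK4 (-1.13), an ETS factor that works with SRF on the FOS promoter, fell, while the kinase gene MAP2K5 rose from 8.51 ± 1.27 to 18.7 ± 0.483 FPKM. SRF itself, chosen after its values were seen, was at 16.2, 16.1 and 19.0 FPKM in controls against 14.1, 15.9 and 14.3 with the mimic (adjusted p = 0.221).

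Among 10 genes of AP-1 mRNA and protein turnover, 5 were lower and 2 higher, near the 39.6% and 12% of all genes. The counts were 3 and 3 after median-of-ratios scaling, beside 3953 and 3889 of all 14439 genes. ZFP36, which binds AU-rich mRNAs and hastens their decay and is itself an early-response gene, fell from 22.9 ± 4.02 to 6.49 ± 0.935 FPKM (-1.74, SE 0.17, adjusted p = 0.000150). ZFP36L1 was lower (-1.39, adjusted p = 0.0129), but not without mimic sample 1 (0.0547, the highest over the alternatives). FBXW7, a ubiquitin ligase subunit that targets JUN, was lower (-1.06). KHSRP (0.86) and ELAVL1 (0.74), which bind AU-rich elements and respectively hasten and delay decay, were higher.

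On the deposited values, genes widely listed as AP-1 targets were called lower about as often as all genes, and higher more often. Of 34, 25 were tested, 11 were lower and 6 higher, beside 39.6% and 12% of all genes. The median was -0.30 against -0.29 for all genes. After median-of-ratios scaling 11 were lower and 10 higher. That scaling called 3953 of all 14439 genes lower and 3889 higher, so there the targets were called more often than all genes in both directions. The median of the targets was then 0.02, against 0.01 for all genes. The chemokine gene CXCL8 went from 16.4, 12.8 and 18.7 to 0.618, 0.628 and 0.386 FPKM (-3.97, SE 0.18, adjusted p = 8.24e-06). Like FOSB, CXCL8 averaged 1 FPKM or more only through the controls. Its mimic values lie near the 0.5 pseudocount, so the size depends on that setting. The cytokine gene IL6 (-2.69), the prostaglandin synthase gene PTGS2 (-1.74) and the metallothionein gene MT2A (-1.36), which has near-identical paralogs, also fell. FSCN1, an actin-bundling protein gene, rose from 96.8 ± 3.69 to 238.8 ± 18.4 FPKM (1.30, SE 0.13, adjusted p = 0.000163). MMP3, a classic target, was listed at 0 in all samples, and MMP1 was at 0.159 or less.

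**Figure D4:**
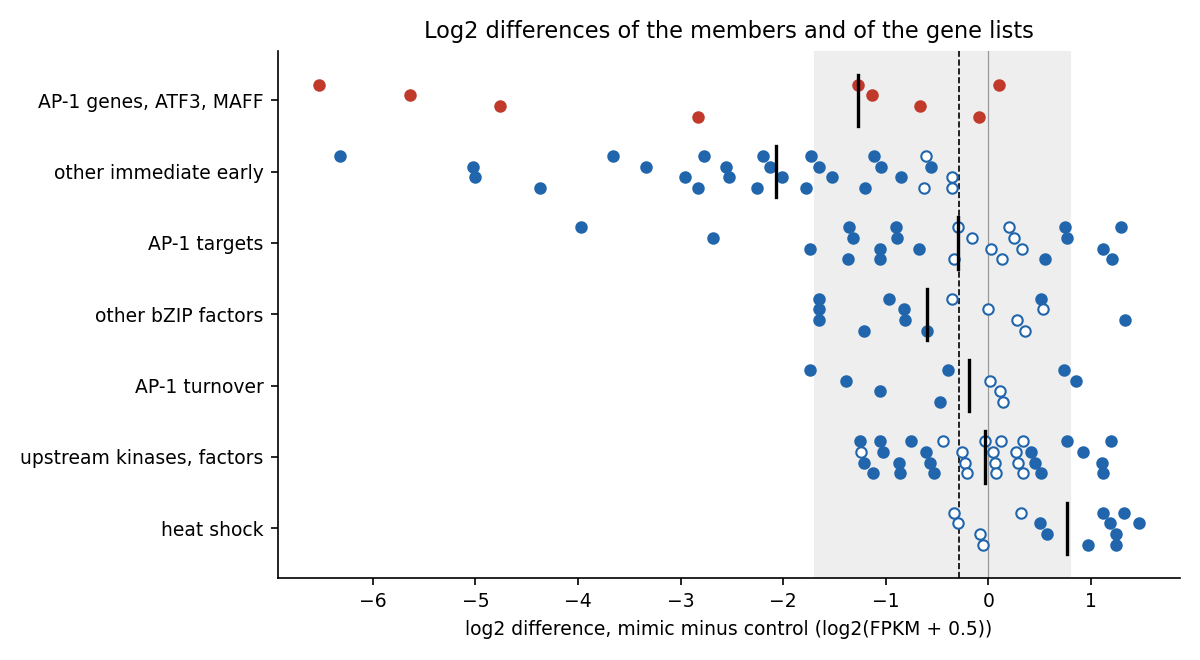
Log2 differences (mimic minus control) of the tested genes of each list; filled blue points passed the limma threshold, red points are the 9 members, for which no test is shown, bars are list medians, the dashed line is the median of all genes (-0.29) and the grey band runs from their 5th to their 95th percentile (-1.69 to 0.80). The 4 lowest members and most immediate early genes lie left of the band, and most of the target genes lie inside it.

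Heat shock genes, which like FOS and JUN are known to be induced when cells are detached and handled, went the other way. Of 14, 9 were higher and none lower, beside 12% higher and 39.6% lower of all genes, with a median of 0.77. After median-of-ratios scaling 10 were higher and none lower, where 3889 of the 14439 genes tested were called higher and 3953 lower. HSPA8 went from 157.3, 227.6 and 205.2 to 517.2, 571.5 and 526.3 FPKM (1.47, SE 0.17, adjusted p = 0.000309), and HSPB1 (1.32) and HSP90AB1 (1.18) rose with it. HSPA1A (1.11) and HSPA1B (1.24) were higher as well, but they are near-identical copies whose reads cannot be parted with certainty. All 6 samples were detached with trypsin, per the labels' protocols, and the part of handling in the members' levels was not tested.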

How the data were processed

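Total RNA of 6 samples (1 µg each) was made into mRNA libraries. The authors deposited FPKM for 58174 genes in each sample, per the file headers; the single-sample tables held identical values. FastQC, HISAT2 and hg38 are named by the submitters' processing notes; the tool giving FPKM, its strand setting and all versions were not given in the sources used here. Groups came from the sample titles. Symbols were updated through identifiers (57392 matched). Implied fragment numbers used exon lengths from GENCODE 29; whole reads were not recovered, so no count test, counting interval or floor is given.

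The 14439 genes averaging 1 FPKM or more were fitted with limma-trend, robust moderation (limma 3.58.1, R 4.3.3), on log2(FPKM + 0.5), with Benjamini-Hochberg adjustment at 0.05. Fold changes are on that scale and understate low genes. The fit was tested on simulated data. The members and lists were chosen with earlier results of these data known. Named list genes are the 5 called genes with the smallest p, unless said otherwise. Similar genes are the 3 nearest of each member, and neighbours overlap a member or start within 5 kb. The 16 alternatives covered pseudocount, filter, scaling, moderation, the replicate block and left-out samples.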

Additional observations from a re-analysis of the deposited data

How the results depend on the processing

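The directions of FOS, FOSB, FOSL1, JUN, JUNB, JUND and ATF3 held under all alternatives run for them. FOSL2 turned to -0.0073 without control sample 3 and reached 0.17 without control sample 2. MAFF, at -0.09, became 0.20 after median-of-ratios scaling, 0.23 after quantile normalization, and 1.40 with both samples numbered 3 left out. Leaving out 1 sample gave MAFF -0.54 (control sample 2) to 0.71 (control sample 3), and 0.59 for mimic sample 3. The members' median difference of -1.27 became -0.95 after median-of-ratios scaling, and ranged from -1.63 to -1.11 with samples left out (-1.47 without sample 3 of both groups). Over all genes, 1735 called higher became 3889 after median-of-ratios scaling and 3592 after quantile normalization, and 5718 called lower became 3953 and 3289, 8755 with no filter and 2916 at a mean of at least 5 FPKM.

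Median-of-ratios scaling gave 10 AP-1 targets, 5 other leucine zipper genes and 15 upstream genes called higher (14 upstream genes after quantile normalization), and 3 turnover genes called lower. With no filter 1 other leucine zipper gene was called higher. With samples left out, other leucine zipper genes called higher ranged from 1 to 4, upstream genes called higher from 5 to 7 (5 without sample 3 of both groups), turnover genes called lower from 3 to 4, and heat shock genes called lower from 0 to 1. The turnover count fell to 3 without control sample 1 or mimic sample 1, and the upstream count to 5 without control sample 2. The leucine zipper count fell to 1 without control sample 1, control sample 2 or mimic sample 2 and reached 4 without mimic sample 3. The causes were not tested.

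Whether equal sample numbers mark paired samples is not stated. Deviations from the group means correlated across genes at 0.18, -0.05 and 0.22 for numbers 1, 2 and 3. Between unequal numbers the correlations ran from -0.28 to 0.13, and so few values cannot settle pairing. With the replicate block, 2117 genes were called higher and 5994 lower, and each list's counts stayed within 1.5 times. Depth per gene is not known, so values near 0 FPKM have unknown precision.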
